A study of Homo sapiens with 27 samples.

Results

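MGMT-transfected LN-229 cells that had received temozolomide (TMZ) 1 time were compared with the same cells given solvent 1 time, by the base, place and sequence of the sites that O6-MeG-seq marked. The members are the 6 libraries with these labels, 3 per group, of 27 libraries in the series, read over sites on chromosomes 1 to 22 and the mitochondrial chromosome (M) whose deposited score was 30 or more. LN-229 is a human glioblastoma cell line. The treated cells got 1 mM TMZ in growth medium and the controls 1% DMSO, and DNA was taken 24 h later in both groups. Both groups carry the MGMT transfection, whose promoter and clonality are not given in the sources used here, and nothing in the labels says that replicates came from separate cultures, so the p-values measure the spread between these libraries only. For scale, 3 libraries each of LN-229 WT cells (1 or 3 exposures, TMZ or solvent) and of MGMT cells after 3 exposures are set beside them, the repeated doses being 4 h apart. A further 3 libraries are of naked DNA treated with 1 mM TMZ outside cells, which the labels give as DNA of WT cells in replicates 1 and 2 and of MGMT cells in replicate 3.

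TMZ is a methylating prodrug used against glioblastoma. A small part of its lesions sits on the O6 atom of guanine, where the added methyl group makes guanine pair with thymine during replication, which mismatch repair turns into lethal damage. The enzyme MGMT takes this methyl group onto itself and so restores guanine, and tumours that make little MGMT respond better to the drug. In the assay an antibody enriches fragments with O6-methylguanine and a polymerase that stops at the lesion marks the base, so a signal from the lesion is expected at G and marks at A, C and T count as background.

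Replicate 1 stood apart before any comparison. Its solvent library kept 870454 sites, against 3291247 and 2142169 in the solvent libraries of replicates 2 and 3, and the TMZ libraries kept 1923955, 2669814 and 3058408. A score of 30 or more was reached by 48.6% of the sites of the solvent library of replicate 1 and by 75.5% and 83.5% in the other two (TMZ 60.3%, 75.5% and 84.5%). Of the G sites of that solvent library, 31.9% lay at a position and strand that naked DNA replicate 1 also marked, and of its sites at A, C or T 14.02% did. The solvent libraries of replicates 2 and 3 shared 1.65% and 1.70% of their G sites with the same naked DNA library, and 0.307% and 0.344% of their other sites. TMZ replicate 1 shared 9.09% of G sites and 3.55% of the others, while TMZ replicates 2 and 3 shared 1.95% and 2.19% of G sites. With naked DNA replicates 2 and 3 the solvent library of replicate 1 shared 1.40% and 1.47% of its G sites, against 1.10% to 1.34% in the other solvent libraries. On autosomes alone, 2.34% of its G sites were marked in naked DNA replicate 2 or 3, against 1.52% and 1.61% in solvent replicates 2 and 3. In TMZ replicates 1, 2 and 3 these autosomal shares were 2.87%, 2.25% and 2.95%. Solvent replicate 1 also shared 13.7% of its G sites and 21.4% of its other sites with TMZ replicate 1. With replicate 1 of WT solvent and of WT TMZ after 1 exposure it shared only 0.287% and 0.611% of its G sites. Solvent replicates 2 and 3 shared 1.96% and 1.14% of their G sites with the TMZ library of their own number, and 0.541% or less with either of the other TMZ libraries. All these shares, except those given for autosomes, include chromosome M, which can make up much of a low one. Solvent replicates 2 and 3 had 2145 G sites in common, 619 of them on autosomes. Whether any of these libraries were prepared or sequenced together is not given in the sources used here. In solvent replicate 1, marks of its own and marks that came from another library cannot be told apart, so what its G share of 43.7% measures is unresolved. Sites that no other of the 27 libraries marked were also compared on their own. Among them G took 34.3%, 30.7% and 41.2% under TMZ and 38.1%, 18.7% and 18.4% under solvent, a mean difference of 10.3 points (17.4 without replicate 1), and replicate 1 still had less G under TMZ (a difference of -3.86 points). The comparisons below are given with all replicates and, where a fit or test without replicate 1 was run, without it. Most of the bins and genes they name are also given both ways.

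**Figure D1:**
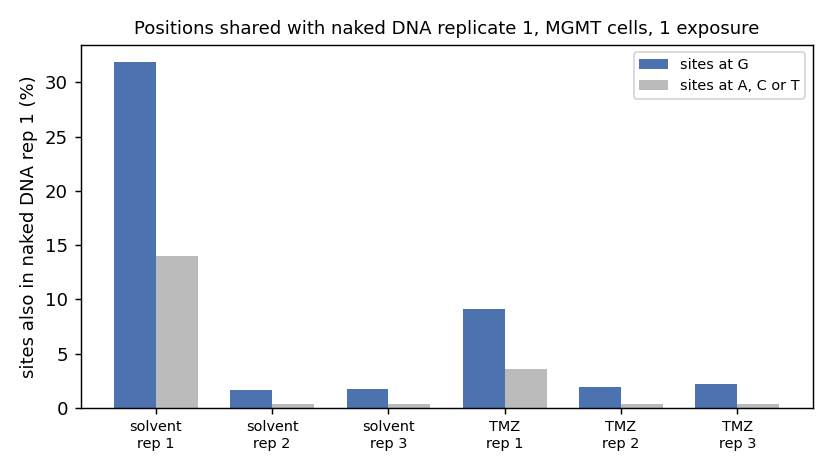
Percentage of marked sites (vertical axis) that naked DNA replicate 1 marks at the same position and strand, for the 6 libraries (horizontal axis), at G in blue and at A, C or T in grey. The solvent library of replicate 1 reaches 31.9% at G, TMZ replicate 1 reaches 9.09%, and the others stay at 2.19% or less.

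To show what the marks look like on sequence, 3 promoter windows are printed, each running from 250 bases before to 50 after a gene start (RefSeq, GRCh38.p14, gene strand, 5′ to 3′). A capital G marks a guanine of the gene strand that at least 1 TMZ library marked, and a capital C marks a base whose partner guanine on the opposite strand was marked. LOC124904770, an uncharacterized locus (chr19:54416852-54417151, + strand), held the most marked G positions of all windows. MAP3K12, the gene of a stress kinase known from neurons (chr12:53499409-53499708, - strand), and SLC4A8, the gene of a bicarbonate transporter (chr12:51424581-51424880, + strand), are shown because they had marks under TMZ and 1 or 0 under solvent, a choice made after the values were seen.
LOC124904770: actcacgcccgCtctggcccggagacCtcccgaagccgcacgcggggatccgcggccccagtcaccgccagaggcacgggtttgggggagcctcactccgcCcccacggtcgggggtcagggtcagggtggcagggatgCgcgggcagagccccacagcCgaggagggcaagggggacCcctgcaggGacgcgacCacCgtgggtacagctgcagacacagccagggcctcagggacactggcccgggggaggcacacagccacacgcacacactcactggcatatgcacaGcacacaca
MAP3K12: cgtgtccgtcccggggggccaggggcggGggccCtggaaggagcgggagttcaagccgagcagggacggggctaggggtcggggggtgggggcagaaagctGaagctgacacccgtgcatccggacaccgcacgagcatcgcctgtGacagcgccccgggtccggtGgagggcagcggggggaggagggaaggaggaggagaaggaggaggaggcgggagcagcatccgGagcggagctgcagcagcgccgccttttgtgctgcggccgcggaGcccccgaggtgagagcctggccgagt
SLC4A8: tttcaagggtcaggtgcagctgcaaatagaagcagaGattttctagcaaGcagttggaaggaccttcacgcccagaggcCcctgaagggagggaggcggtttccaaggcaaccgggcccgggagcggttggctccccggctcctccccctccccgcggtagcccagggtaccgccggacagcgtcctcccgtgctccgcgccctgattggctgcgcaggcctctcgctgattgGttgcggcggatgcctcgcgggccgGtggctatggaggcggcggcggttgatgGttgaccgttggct

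In the LOC124904770 window the TMZ libraries marked 5, 3 and 2 G positions in replicates 1, 2 and 3, the solvent libraries 2 each and naked DNA 8, 8 and 7, of 213 G positions on both strands. In the MAP3K12 window TMZ marked 2, 2 and 3 positions, solvent 0, 1 and 0, and naked DNA 0, 5 and 4. In the SLC4A8 window TMZ marked 1, 1 and 4 positions, solvent none in 3 libraries, and naked DNA 0, 4 and 2. Single windows therefore carried a handful of marks, too few to compare. The other windows with most TMZ positions were those of LOC124904504 on chromosome 1 (6 against 2 under solvent) and of SVOPL, a gene of a putative transporter on chromosome 7 (6 against 4). Of 33551 distinct windows, 12258 (36.5%) held a G position marked by a TMZ library and 5621 (16.8%) one marked by a solvent library, and 28 against 1 held at least 5. From replicates 2 and 3 alone, 9626 windows (28.7%) had a TMZ position and 3475 (10.4%) a solvent position. The 3 TMZ libraries also had more G sites in all, 719236, 870870 and 1344044 against 380352, 654033 and 415496, and these counts were not scaled to that number.

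At a score of 30 or more, guanine took a larger share of the marks under TMZ in replicates 2 and 3 and a smaller one in replicate 1. The share of sites at G was 37.4%, 32.6% and 43.9% in TMZ replicates 1, 2 and 3, and 43.7%, 19.9% and 19.4% in the solvent libraries. All 3 TMZ libraries lay above both solvent libraries of replicates 2 and 3, and the solvent library of replicate 1 lay above TMZ replicates 1 and 2, so the groups overlapped. The means were 38.0% ± 5.69 under TMZ and 27.7% ± 13.9 under solvent (SD, n = 3 each), 10.3 percentage points apart (two-sided exact permutation test, p = 0.3; Benjamini-Hochberg adjusted over 9 comparisons, 0.386). With 3 libraries against 3 this test cannot go below 0.1, and with 2 against 2 not below 0.333. Without replicate 1 the means were 38.3% ± 8.01 and 19.6% ± 0.337 (SD, n = 2 each), 18.6 points apart (exact permutation test, p = 0.333). The differences within a replicate number were -6.31, 12.7 and 24.5 points. The direction in replicate 1 depended on the minimum score: with none, its G share was 34.3% under TMZ and 33.1% under solvent, 1.25 points higher under TMZ, so that TMZ was higher in 3 of 3 replicate numbers and the means lay 12.5 points apart (exact permutation test, p = 0.2). The 95% Wilson interval of the lowest TMZ share, in replicate 2, was 32.6% to 32.7%, so counting error was small beside the spread between libraries.

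**Figure D2:**
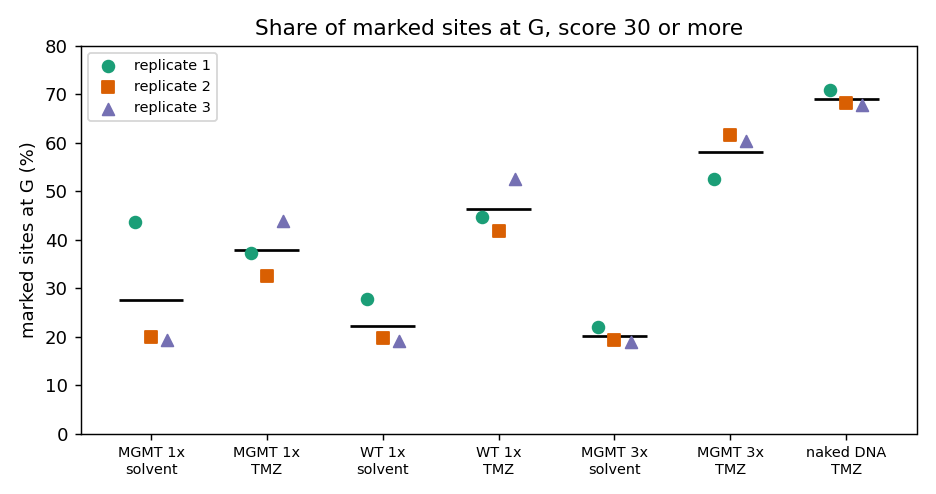
Share of marked sites at G (vertical axis, %) in each library of 7 groups (horizontal axis), one marker per library with the shape and colour of its replicate, and the group mean as a bar. The solvent library of replicate 1 of MGMT cells sits at 43.7%, while its fellow solvent libraries sit at 19.9% and 19.4% and the 3 TMZ libraries between 32.6% and 43.9%.

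Expressed as odds, G sites per site at another base were 0.769 times those of the solvent library in replicate 1, 1.95 times in replicate 2 and 3.26 times in replicate 3. The same ratio was 2.11, 2.91 and 4.69 in WT cells after 1 exposure and 3.90, 6.71 and 6.48 in MGMT cells after 3 exposures. In each replicate number it was lowest in MGMT cells after 1 exposure. In points of G share, the response of MGMT cells was 13.8 points smaller than that of WT cells (-6.31, 12.7 and 24.5 points against 17.0, 22.1 and 33.4; two-sided exact permutation test of 3 pair differences against 3, p = 0.3, adjusted 0.386). Without replicate 1 of both lines the responses differed by -9.09 points (exact permutation test, p = 0.667). Against 3 exposures of MGMT cells (30.4, 42.3 and 41.3 points) the response after 1 exposure was smaller by 27.7 points, and the values did not overlap (exact permutation test, p = 0.1, the smallest possible; adjusted 0.386). Without replicate 1 of both exposure numbers that difference was -23.2 points (exact permutation test, p = 0.333). With replicate 1 left out after 1 exposure only, the mean response was 18.6 points, against 38.0 over all 3 replicates after 3 exposures. In MGMT cells, solvent libraries other than that of replicate 1 after 1 exposure did not stand this high. WT solvent replicate 1 after 1 exposure also shared 35.9% of its autosomal G sites with any of the 3 naked DNA libraries. That was more than in the other solvent libraries counted, and WT solvent libraries after 3 exposures were not counted.

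Adenine, the other purine, took a smaller part of the sites under TMZ in replicates 2 and 3. Its share was 22.04%, 22.7% and 19.9% under TMZ and 21.7%, 26.7% and 27.2% under solvent. The means, 21.5% ± 1.48 and 25.2% ± 3.01 (SD, n = 3), differed by -3.67 points (two-sided exact permutation test, p = 0.3; adjusted 0.386), and by -5.66 points without replicate 1 (exact permutation test, p = 0.333). Thymine had 25.5%, 28.3% and 23.3% under TMZ and 22.02%, 34.2% and 33.5% under solvent. Cytosine had 15.1%, 16.4% and 12.9% against 12.6%, 19.3% and 19.9%. Since the 4 shares add up to the whole, a higher G share lowers the rest, and these 3 give no separate evidence. In promoter windows the base after a mark at A, C or T was G in 39.3%, 38.1% and 45.0% under TMZ. It was G in 39.0%, 35.0% and 36.4% under solvent and in 48.9%, 49.1% and 48.7% in naked DNA. Whether TMZ adds to the marks at these bases was not tested. Sites at G were even between strands, with a largest difference between the G shares of the strands of 0.238 points, in solvent replicate 2.

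Every autosome showed the pattern of its library. In replicate 1 the G share was lower under TMZ on 22 of 22 autosomes, with differences from -3.93 points on chromosome 15 to -10.0 on chromosome 20. In replicate 2 it was higher on 22 of 22, by 11.9 points on chromosome 4 to 14.4 on chromosome 22. In replicate 3 it was higher on 22 of 22, by 22.9 on chromosome 4 to 27.7 on chromosome 22. Chromosomes of a library are not replicates, and the range within a library was narrower than the distance between libraries. The mitochondrial chromosome had the smallest differences, -1.98, 4.95 and 8.88 points.

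**Figure D3:**
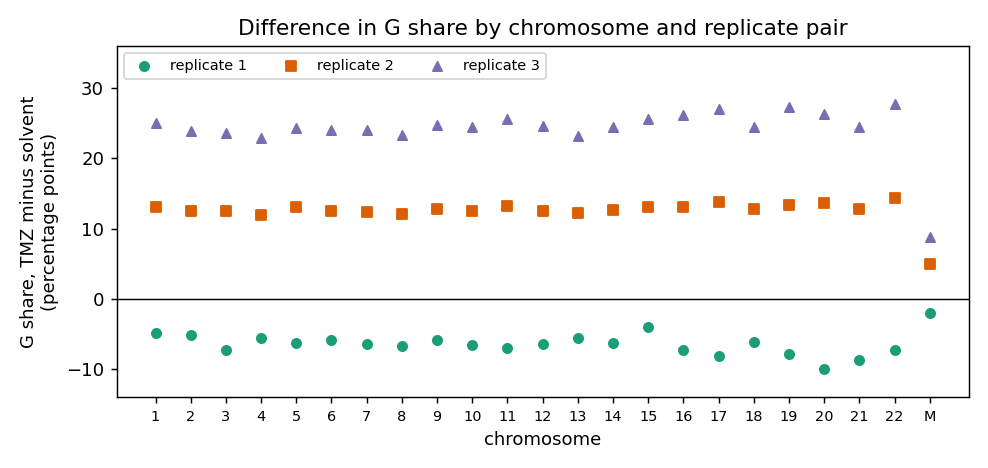
Difference in G share, TMZ minus solvent (vertical axis, percentage points), for each chromosome (horizontal axis) and replicate number (marker). Replicate 1 lies below 0 on all 22 autosomes, replicates 2 and 3 lie above it, and chromosome M has the values closest to 0 in each replicate.

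Of all G sites, the percentage on chromosome M was 0.225%, 0.314% and 0.232% under TMZ and 0.286%, 0.432% and 0.547% under solvent. It was lower under TMZ in 3 of 3 replicate numbers, with overlap between TMZ replicate 2 and solvent replicate 1. On the log2 scale the difference of means was -0.68 (two-sided exact permutation test, p = 0.2; adjusted 0.386) and -0.85 without replicate 1 (exact permutation test, p = 0.333). The number of mitochondrial G sites itself was 1617, 2734 and 3122 under TMZ and 1089, 2824 and 2273 under solvent, so in replicate 2 it was slightly lower under TMZ while the number over all chromosomes was larger. Chromosome M is small, and its number of marked G positions varied less than the total: naked DNA, with 8826252, 5126312 and 5787720 G sites in all, had 2833, 3138 and 3134 of them on the minus strand of M, against 2320 in TMZ replicate 3 with 1344044 in all. Solvent replicate 1, with the fewest G sites, had the lowest share of the solvent libraries. Solvent replicates 2 and 3 had higher shares than all 3 TMZ libraries, which had more G sites in all. The share was not compared at an equal number of G sites. In each of the 6 libraries the minus strand held more of them, from 805 against 284 on the plus strand in solvent replicate 1 to 2320 against 802 in TMZ replicate 3.

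The base before a marked G was next compared, because alkylation by TMZ in DNA is known to prefer guanines that follow a purine. In promoter windows the neighbours come from the RefSeq sequence itself: all 224811 marked bases compared there were equal to it. A purine stood before 73.8%, 70.7% and 77.8% of promoter G sites in TMZ replicates 1, 2 and 3, and before 76.3%, 55.6% and 56.0% in the solvent libraries. Over all G positions of the windows the figure was 58.4%, and naked DNA had 77.7%, 80.1% and 79.9%. The 3 TMZ libraries and the solvent library of replicate 1 thus lay between 70.7% and 77.8%, and the other solvent libraries lay below the share over all G positions. The means were 74.1% ± 3.54 and 62.6% ± 11.9 (SD, n = 3), a difference of 11.5 points (two-sided exact permutation test, p = 0.3; adjusted 0.386), and 18.5 points without replicate 1 (exact permutation test, p = 0.333). These shares rest on 3843 to 7009 G sites per TMZ library and 1401 to 2301 per solvent library, with 95% Wilson intervals of 69.2% to 72.1% in TMZ replicate 2 and 53.4% to 57.7% in solvent replicate 2.

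Beyond promoter windows, the neighbour was read where 1 of the 9 solvent libraries of the other groups marked it, with chromosome M included. A purine then preceded 70.3%, 65.2% and 71.6% of G sites under TMZ and 68.4%, 52.5% and 53.5% under solvent. It was higher under TMZ in 3 of 3 replicate numbers, and the groups overlapped through solvent replicate 1. The difference of means was 10.9 points (69.0% ± 3.36 against 58.1% ± 8.93, SD, n = 3; two-sided exact permutation test, p = 0.2; adjusted 0.386), and 15.4 points without replicate 1 (exact permutation test, p = 0.333). The neighbour could be read at 10522 to 22038 G sites in a TMZ library and 5994 to 14800 in a solvent library. These values therefore hold for positions beside a background mark. Chromosome M had 1617 to 3122 G sites in a TMZ library and 1089 to 2824 in a solvent library. How many of these had a readable neighbour was not counted, and the difference without chromosome M was not tested. With no minimum score the groups did not overlap and lay 11.3 points apart (exact permutation test, p = 0.1). Over sites that no other library marked the difference was 12.5 points, and 17.7 without replicate 1.

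**Figure D4:**
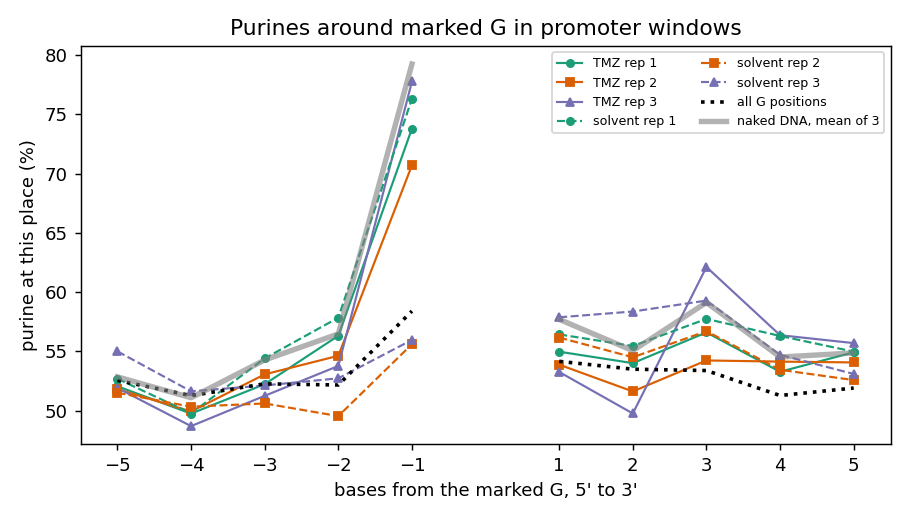
Percentage of purines (vertical axis) at each place from 5 bases before to 5 after a marked G in promoter windows (horizontal axis, bases, 5′ to 3′), for the 3 TMZ libraries (solid), 3 solvent libraries (dashed), the mean of naked DNA (grey) and all G positions of the windows (dotted). At the place before the G, TMZ libraries and solvent replicate 1 reach 70.7% or more and solvent replicates 2 and 3 stay at 55.6% and 56.0%.

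With the base on each side, 16 contexts of a promoter G were counted relative to how often the windows hold them, where 1 means as often as available. The ratio of TMZ to solvent means was highest in GGC, GGT and AGC, all with a purine first. GGC had 1.44, 1.43 and 1.30 under TMZ and 1.38, 0.888 and 0.730 under solvent, a ratio of 1.39 (1.69 without replicate 1). GGT had 1.52, 1.26 and 2.04 against 1.63, 0.912 and 0.978, a ratio of 1.37 (1.74 without replicate 1), with TMZ replicate 3 far above its fellows. AGC had 1.08, 1.21 and 1.18 against 1.03, 0.797 and 0.765, a ratio of 1.34 (1.53 without replicate 1), and was the single context of 16 whose groups did not overlap over all 3 replicates.

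The lowest ratios were in TGT, TGA and CGA, in which a pyrimidine comes first. TGT had 0.564, 0.737 and 0.437 under TMZ and 0.445, 1.40 and 1.30 under solvent, a ratio of 0.552 (0.434 without replicate 1). TGA had 0.539, 0.432 and 0.349 against 0.421, 0.941 and 0.825, and CGA, the context of a CpG site, had 0.457, 0.460 and 0.282 against 0.383, 0.728 and 0.812. Their ratios were 0.604 and 0.624 (0.443 and 0.482 without replicate 1). In replicates 2 and 3, 6 of 16 contexts were higher under TMZ in both libraries than in both solvent libraries, 8 were lower and 2 overlapped. The same contexts in naked DNA had means of 1.39 (GGC), 1.57 (GGT), 1.118 (AGC), 0.413 (TGT), 0.351 (TGA) and 0.350 (CGA). All 3 TMZ libraries and solvent replicate 1 lay nearer to these than solvent replicates 2 and 3 did in TGT, TGA and CGA.

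G positions were seldom marked again. Over the 3 TMZ libraries 2919408 distinct autosomal G positions were marked, 7245 of them in at least 2 libraries and 24 in all 3. The solvent libraries had 1442392, 1302 and 1. Of the 24, 11 were also marked in naked DNA, and 22 were marked in no solvent library. None of those 22 lay in a promoter window. Marks at A, C or T repeated in 4153 positions under TMZ and 4871 under solvent. These counts were not scaled to the number of sites, which at G was larger under TMZ in each replicate number. Replicates 2 and 3 alone had 2908 G positions in common under TMZ and 619 under solvent, of 2206150 and 1063813 marked in either, and 1918 and 3374 in common at A, C or T.

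The share of autosomal G sites that naked DNA also marked changed sign with replicate 1. It was 11.4%, 3.86% and 4.81% under TMZ and 33.2%, 2.78% and 2.82% under solvent, a difference of -6.24 points (two-sided exact permutation test, p = 1). Without replicate 1 it was 1.53 points higher under TMZ (exact permutation test, p = 0.333), and against naked DNA replicates 2 and 3 alone it was 0.870 points higher (higher in 3 of 3 replicate numbers; exact permutation test, p = 0.2).

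Protein-coding genes cover 42.1% of the autosomes in the RefSeq table and at a score of 30 or more held G sites at a higher density than the rest. The log2 ratio of the densities was 0.38, 0.30 and 0.36 under TMZ, 0.39, 0.22 and 0.25 under solvent and 0.37, 0.40 and 0.41 in naked DNA. TMZ exceeded solvent in replicates 2 and 3 and not in replicate 1. The difference was 0.062 (two-sided exact permutation test, p = 0.4; adjusted 0.45) and 0.099 without replicate 1 (exact permutation test, p = 0.333). Sites at A, C or T had 0.26, 0.22 and 0.21 under TMZ and 0.26, 0.17 and 0.18 under solvent, so the means differed in the same direction. With no minimum score the log2 density ratio at G was -0.096, -0.0091 and 0.19 under TMZ and -0.0036, -0.083 and 0.051 under solvent, below 0 in 4 of 6 libraries. Promoter windows held 0.565%, 0.442% and 0.523% of G sites under TMZ, 0.606%, 0.311% and 0.338% under solvent and 0.569% to 0.670% in naked DNA.

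G sites were weighted toward GC-rich sequence under TMZ in replicates 2 and 3 and away from it in replicate 1. Bins of 1 Mb were put in 5 classes by GC content, estimated from the bases marked in the 9 solvent libraries of other groups. In the class with the highest GC content, the log2 ratio of the share of G sites, TMZ over solvent, was -0.088, 0.18 and 0.19 in replicates 1, 2 and 3, and in the lowest it was 0.076, -0.16 and -0.19. For sites at A, C or T the highest class had -0.027, 0.14 and 0.077 and the lowest 0.016, -0.093 and -0.062. The other bases therefore shifted in the same direction as G in each replicate, and how much of the shift at G goes with that of the whole library was not tested.

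**Figure D5:**
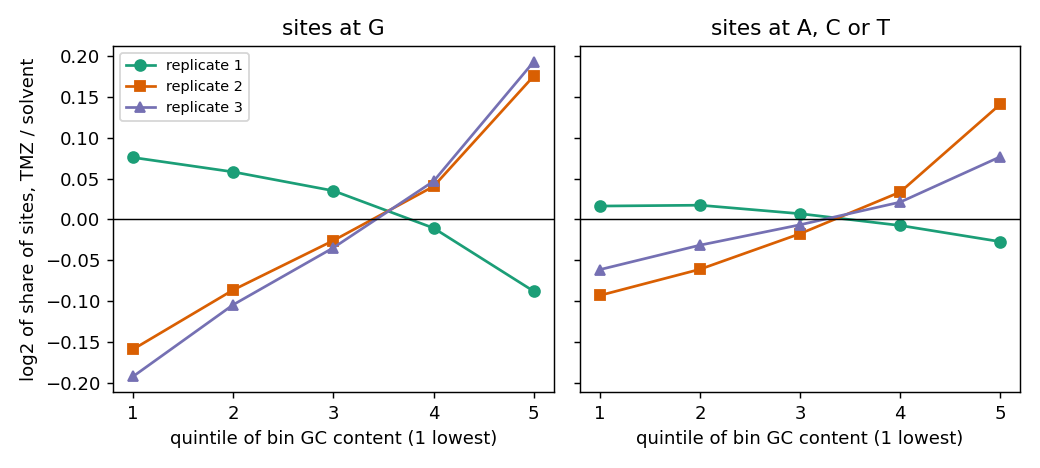
Log2 ratio of the share of sites in a class of bins, TMZ over solvent (vertical axis), by GC class of the bin (horizontal axis, 5 classes of 550 or 551 bins), for sites at G (left) and at A, C or T (right), one line per replicate number. Replicates 2 and 3 climb from -0.16 and -0.19 to 0.18 and 0.19 at G while replicate 1 descends, and the right panel has the same directions with smaller values.

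Few single bins differed. Of 2752 bins, 5 had a higher share of G sites under TMZ (0.182%) and 6 a lower one (0.218%) at an adjusted p of at most 0.05 (limma voom over 24 cell libraries; 444 bins had an unadjusted p under 0.05). Without replicate 1, 53 were higher (1.93%) and 71 lower (2.58%), among them 10 of the 11. A fit to replicates 2 and 3 of the 2 groups alone, added after the values were seen, had 120 higher (4.38%) and 83 lower (3.03%). Leaving out the solvent library of replicate 1 alone gave 293 higher and 257 lower, leaving out its TMZ library gave 2 and 2, and leaving out replicate 2 or 3 gave 0. Solvent replicates 2 and 3 and TMZ replicate 2, each left out alone, also gave 0, and TMZ replicate 3 gave 1. In a fit to the 6 libraries alone, and in limma-trend with median-of-ratios sizes in place of voom with trimmed-mean sizes, 0 bins passed, and with no minimum score 45 did, 7 of them among the 11. The bins named next therefore rest on the fit that shares its spread over 24 libraries, and on each of several single libraries. The bins called without replicate 1 had a median GC content of 46.2% (higher) and 35.1% (lower) against 38.9% over all bins, and 58.3% and 15.8% of their length in genes against 46.7%. For sites at A, C or T 0 bins were called (limma, 295 at an unadjusted p under 0.05; without replicate 1 again 0, 249 unadjusted). In the 5 higher and 6 lower bins the median log2 fold change at these bases was 0.096 and -0.107, against 0.37 and -0.37 at G. The medians thus had the same direction as at G, while the bin within CSMD1 had 0.049 at these bases and -0.36 at G. How much of a call goes with the other bases was not tested.

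The higher bin with the smallest adjusted p was chr15:88000001-89000000, which holds NTRK3, a neurotrophin receptor gene, and ACAN, the gene of a cartilage proteoglycan. Scaled to 1000000 autosomal G sites per library (scaled G sites below), it had 573, 594 and 631 under TMZ and 480, 432 and 436 under solvent. The lowest TMZ library thus lay above the highest solvent library, which the choice of bins to name required. Its log2 fold change was 0.43 (limma adjusted p = 0.0216, SE 0.0773), and 0.51 without replicate 1 (adjusted p = 0.00304). The log2 fold change was of similar size, 0.40, 0.43, 0.39 and 0.39, with only the 6 libraries, in limma-trend with median-of-ratios sizes, without replicate 2 and without replicate 3, where the limma adjusted p was 0.932, 0.202, 0.268 and 0.130. The bin chr5:56000001-57000000, with the kinase gene MAP3K1, had 319, 387 and 358 against 290, 272 and 281, a log2 fold change of 0.37 (0.45 without replicate 1). The first bin of chromosome 6, chr6:1-1000000, with IRF4, a lymphocyte transcription factor gene, had 447, 448 and 415 against 377, 309 and 378, a log2 fold change of 0.36 (0.39 without replicate 1). The others were chr2:70000001-71000000, with TGFA, which encodes an EGFR ligand (log2 fold change 0.42, and 0.41 without replicate 1), and chr15:62000001-63000000, with VPS13C and TLN2 (0.29 and 0.26). Without solvent replicate 2 the values of the chromosome 6 and chromosome 2 bins were 0.22 and 0.24 (limma adjusted p = 0.35 and 0.382). The bin with VPS13C was the one called bin that missed the threshold without replicate 1 (limma adjusted p = 0.0513).

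Among the lower bins, chr21:10000001-11000000, which holds TPTE and lies by the centromere, had 216, 214 and 202 scaled G sites under TMZ and 245, 335 and 317 under solvent. Its log2 fold change was -0.51 (limma adjusted p = 0.0334, SE 0.103), and -0.64 without replicate 1 (adjusted p = 0.0017). With no minimum score it was -0.16 (limma adjusted p = 0.468). The bin chr7:116000001-117000000, with MET, a receptor tyrosine kinase gene amplified in some gliomas, and the caveolin genes CAV1 and CAV2, had 375, 369 and 380 against 475, 498 and 457. Its groups did not overlap, which the choice of bins to name required. The log2 fold change was -0.34 (limma adjusted p = 0.0334, SE 0.0710), and -0.35 without replicate 1 (limma adjusted p = 0.0230). The other 4 were on chromosome 8, in bins starting at 3000001, 5000001, 49000001 and 59000001. The first of these lies within CSMD1, a giant gene of a membrane protein, and had 254, 222 and 238 against 274, 339 and 298 (log2 fold change -0.36, and -0.45 without replicate 1). The bin with TOX, a gene of T-cell development, had 286, 291 and 300 against 340, 379 and 397 (log2 fold change -0.33, and -0.36 without replicate 1). The bins starting at 5000001 and 49000001 had log2 fold changes of -0.38 and -0.39, the former -0.40 without replicate 1. Over all bins, 125 (4.54%) were higher and 160 (5.81%) lower in all 3 TMZ libraries than in all 3 solvent libraries. Copy number of this line is shared by both groups and was not modelled.

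Across 16474 protein-coding genes 0 passed (0%; limma voom, adjusted p at most 0.05; 1016 before adjustment, and 985 with 0 called in limma-trend with median-of-ratios sizes), and 0 did without replicate 1 (1424 before adjustment). On simulated data with 2-fold changes the fit recovered 2.58% of 194 changed genes and 69.0% of 200 changed bins. The spread of the simulated counts was a fixed value, not estimated from these libraries. The recovery therefore does not give what was detectable in a given gene. Among the genes named below, the SE of the log2 fold change in the real fit ran from 0.082 (MACROD2) to 0.562 (RPS24). The median log2 fold change over all genes was 0.025, and 8702 genes were above 0 (0.0082 and 8344 without replicate 1).

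The repair genes gave no call. Of 10 mismatch repair genes, whose products act on the O6-methylguanine mispair, 4 had a log2 fold change above 0 and the median was -0.081 (-0.046 without replicate 1). MSH3, which takes part in the recognition of insertion and deletion loops, and PMS1 had log2 fold changes of 0.044 and -0.14 (limma adjusted p = 0.991 and 0.976), and -0.013 and -0.079 without replicate 1. With single libraries or replicate numbers left out, MSH3 ran from -0.14 to 0.32 and PMS1 from -0.38 to 0.093, so neither had a settled direction. Of 13 tested genes of base excision and direct repair, 6 were above 0, with a median of -0.082 (0.098 without replicate 1). The MGMT gene (chr10:129467241-129770983) had 77, 103 and 150 G sites under TMZ and 61, 67 and 39 under solvent. In scaled G sites that was 107, 119 and 112 against 161, 103 and 94.4, with solvent replicate 1 as the highest value. The log2 fold change was -0.082 (limma adjusted p = 0.977, SE 0.165) and 0.098 without replicate 1. PARP1, which senses strand breaks, and OGG1, the glycosylase for oxidised guanine, had 0.21 and 0.13 (limma adjusted p = 0.952 and 0.981), and 0.46 and -0.048 without replicate 1. PARP1 was -0.027 without replicate 3, and OGG1 was -0.16 without TMZ replicate 1 and 0.43 without TMZ replicate 2.

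The other gene lists had 0 calls as well. Among 14 tested glioblastoma driver genes 8 were above 0, with a median of 0.080 (-0.064 without replicate 1). The kinase gene CDK6, a driver of the cell cycle, had 86.4, 81.8 and 88.7 scaled G sites under TMZ and 111, 109 and 89.5 under solvent. TMZ was lower throughout, and replicate 3 had the smallest margin (log2 fold change -0.32, limma adjusted p = 0.85, SE 0.185; -0.33 without replicate 1, and -0.19 without replicate 2). The receptor gene EGFR and the Ras regulator gene NF1 had 0.14 and 0.13 (limma adjusted p = 0.95 and 0.964), and 0.17 and -0.048 without replicate 1. NF1 was -0.094 without solvent replicate 1 and 0.46 without solvent replicate 2, and EGFR was 0.032 without TMZ replicate 2. The 15 giant neuronal adhesion and synapse genes had 3 members above 0 and a median of -0.090 (-0.17 without replicate 1), with CNTNAP2 at -0.071, MACROD2 at -0.090 and DAB1 at -0.0063 (-0.17, -0.17 and -0.11 without replicate 1). The 15 long broadly transcribed genes had 5 above 0 and a median of -0.041 (-0.093 without replicate 1), with the fragile-site genes FHIT at -0.054 and WWOX at -0.041, and VPS13B at -0.26 (-0.25, -0.0056 and -0.44 without replicate 1). Of 52 tested cytosolic ribosomal protein genes 21 were above 0, with a median of -0.13. Without replicate 1 the median was -0.37, although more of them, 25, were above 0. These genes are short: RPS24 had 13, 11 and 15 G sites under TMZ and 7, 4 and 0 under solvent, and RPS3 had 11, 9 and 17 against 6, 5 and 6. In scaled G sites RPS24 had 18.1, 12.7 and 11.2 against 18.5, 6.14 and 0, so its groups overlapped. The log2 fold changes of RPS24 and RPS3 were 1.24 and 0.0066 (1.87 and 0.039 without replicate 1), and neither was called.

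In the gene fit to replicates 2 and 3 of the 2 groups alone, also added after the values were seen, 5 of 7205 genes passed. GSE1 (log2 fold change 0.61; limma adjusted p = 0.0235) and RBFOX3 (0.48; 0.0109), the gene of the neuronal marker NeuN, were higher under TMZ (0.0278% of genes). CDH18, a cadherin gene (-0.43; 0.0109), CSMD1 (-0.35; 0.0227) and NKAIN3 (-0.51; 0.041) were lower (0.0416%). For RBFOX3 the values were 433 and 462 scaled G sites in TMZ replicates 2 and 3 and 315 and 317 under solvent, while replicate 1 had 516 under TMZ and 741 under solvent. For CSMD1 they were 457 and 495 against 599 and 600, with 493 and 538 in replicate 1. With all replicates the adjusted p of these 5 ran from 0.598 to 0.915 (limma).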

How the data were processed

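O6-MeG-seq sites of 6 libraries were compared, 3 per group. Each deposited file lists distinct positions with strand, base and a whole-number score, per the deposited files; these list sites without read counts, so the score served only as a filter. The submitters' processing notes name Bowtie2 2.3.5.1, GATK 4.2.0.0, SAMtools 1.12, bedtools 2.29.2 and the builds GRCh38 and hg38; duplicate handling is not given in the sources used here. Score 30 or more was required. Single values were compared with exact permutation tests (scipy 1.17.1). G sites per 1 Mb bin or RefSeq gene body (GRCh38.p14) were fitted with limma 3.58.1 (voom, trimmed-mean sizes, at least 10 sites in at least 3 libraries, 8 group means over 24 cell libraries), which was tested on simulated data. In the simulations, whose spread was fixed beforehand, 7 of 145 calls were false for bins and 0 of 5 for genes.

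Members and lists were chosen with earlier results of these data known. Named were up to 5 bins per direction (smallest adjusted p, no overlap), up to 10 such genes, MGMT, the 3 members per list with most sites (1 of which is not reported here), the 3 highest and lowest contexts and the 5 promoter windows with most TMZ positions. Alternatives were score 40 or none, sites no other library marks, other neighbours, other fits, a replicate block and each library left out. The labels do not say whether a replicate number marks a shared batch. Differences between TMZ and solvent were tested without pairing. The response comparisons take differences within a number, a choice that sets their p but not the difference of their means.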

Additional observations from a re-analysis of the deposited data

Results flagged for a closer look

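Sites with a score under 30, taken on their own in no comparison above, had more G under TMZ. Their share at G was 33.9% ± 6.11 under TMZ and 21.1% ± 1.67 under solvent (SD, n = 3), with 29.7%, 31.03% and 40.9% against 23.02%, 20.4% and 19.9% in replicates 1, 2 and 3. The groups did not overlap and lay 12.8 points apart (two-sided exact permutation test, p = 0.1, as low as 3 against 3 can go). In this class the solvent library of replicate 1 had 23.02%, against 43.7% at a score of 30 or more. What the score measures is not given in the sources used here. On chromosome X the share was 34.7% ± 4.68 against 25.3% ± 11.04 (exact permutation test, p = 0.3), and on other contigs 29.8% ± 3.54 against 23.1% ± 10.5 (exact permutation test, p = 0.4; SD, n = 3).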

How the results depend on the processing

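Of the alternatives for single values, 96 kept their direction and 3 reversed. The exact test cannot pass 0.05 at these group sizes, so it says nothing about stability. All 3 reversals concern the share of G sites also marked in naked DNA, at 1.53 points without replicate 1, 3.90 without solvent replicate 1 and 0.870 against naked DNA replicates 2 and 3. Leaving out libraries gave ranges of 3.22 to 18.6 points (G share), -5.66 to -1.84 (A share), 7.29 to 16.1 (purine before G), 6.29 to 18.5 (the same in promoters), 0.028 to 0.11 (gene density, log2), -0.94 to -0.40 (mitochondrial share, log2), -11.3 to 3.90 (naked DNA), -16.3 to -9.09 (against WT) and -33.1 to -23.2 (against 3 exposures). The ranges against WT and against 3 exposures leave out the same replicate number from both responses.

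Counts of bins moved with nearly every choice. The 11 called bins became 0 with only the 6 libraries, 0 with the replicate block fitted to those 6 and 0 with limma-trend and median-of-ratios sizes together (114, 213 and 240 at an unadjusted p under 0.05), 16 with every bin that held a site, 45 with no minimum score, 124 without replicate 1 and 203 with only replicates 2 and 3 of the 2 groups. Leaving out single libraries or numbers gave 0 to 550. Gene counts ran from 0 to 2 there, with SLC25A46 and RNF141 (0 solvent sites in replicates 1 and 3) without replicate 2, SLC2A7 and C8orf90 without replicate 3 and SLC25A46 without solvent replicate 2, and 5 with only replicates 2 and 3. The evidence that replicate numbers pair the libraries was mixed. Deviations from group means over bins correlated within a number at r = 0.48, 0.47 and -0.017. Across numbers r ran from -0.51 (TMZ replicate 2 with solvent replicate 1) to 0.32 (TMZ replicate 2 with solvent replicate 3). Of the 3 TMZ libraries, that of its own number shared most sites at A, C or T with each solvent library (21.4%, 1.17% and 0.55%, against at most 0.346%). Solvent replicates 2 and 3 shared as many or more with libraries of other groups and numbers, 1.52% with MGMT solvent replicate 1 after 3 exposures and 0.721% with its replicate 2. The replicate block gave, beside those counts, exact sign-flip p-values of 0.25 to 1 for differences of unchanged size (10.3 points of G share, p = 0.5). Of 150 alternatives for the named bins, 101 lost the call, and none reversed. Of the named genes, none of which was called, CDK6, EGFR and VPS13B kept their sign with each library or number left out (-0.42 to -0.19, 0.029 to 0.24 and -0.48 to -0.11), while MGMT (-0.19 to 0.098), CNTNAP2 (-0.19 to 0.044), DAB1 (-0.12 to 0.13), MACROD2 (-0.17 to 0.036), FHIT (-0.25 to 0.11) and WWOX (-0.15 to 0.035) did not. Solvent replicate 1 had the fewest G sites, 380352 against 654033 and 415496 in solvent replicates 2 and 3. What this does to its bins and genes was not tested.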
